A study of Homo sapiens with 21 samples.

Results

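The genes described here are the 4 ID genes and 6 genes of the BMP pathway around them, chosen by symbol (ID1, ID2, ID3, ID4, BMP2, BMP4, BMP6, GREM1, SMAD6 and BAMBI). Of these 10 genes, 9 were found among the 42339 gene rows of the count table, and the expression of GREM1 was not analysed here. The study asked how the MUC1-C oncoprotein shapes cancer stem cell-like BT-549 mammospheres, and bulk RNA-seq counts were available for 21 cultures, 3 in each of 7 conditions. BT-549 is an established triple-negative breast cancer (TNBC) cell line. The groups without an shRNA were cells in 2D culture, 3D mammospheres at passage 6, and such mammospheres with 0.75 μM GO-203, a peptide inhibitor of MUC1-C. The other groups were 3D mammospheres carrying tet-MUC1shRNA at passage 6 or tet-MYCshRNA at passage 8, each with 0.1% DMSO vehicle or with 500 ng/ml doxycycline (DOX), which switches the shRNA on.

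Several features of these groups limit what a difference can be tied to. The 2D cells grew attached in RPMI1640 with serum and insulin and the 3D cells in low-attachment plates in MammoCult medium. The 3D cells were also passaged serially from spheres picked by size. Growth format, medium, serum and this selection cannot be told apart. Each silencing used 1 shRNA in vector-selected cells, and no library of DOX-treated cells with a control shRNA was among the 21, so DOX itself and silencing cannot be told apart. The labels give the 3D cells set against GO-203 only as a control, with no vehicle named. The 3 libraries of a group were parallel cultures of the same line, and p-values measure the spread between them.

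ID proteins are helix-loop-helix proteins without a DNA-binding region. They bind E proteins such as TCF3, TCF4 and TCF12 and keep these from pairing with other helix-loop-helix factors on DNA, and they are known for holding progenitor cells undifferentiated. BMP ligands bind paired type I and type II receptors, which phosphorylate SMAD1, SMAD5 and SMAD9. With SMAD4 these enter the nucleus, and ID1, ID2 and ID3 are among their classical target genes. SMAD6, an inhibitory SMAD, and BAMBI, a receptor-like protein without a kinase domain, dampen the pathway and are themselves often induced by it.

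Levels below are CPM values, which put the counts of each library on a common total with TMM factors over the 21 libraries. Library totals ran from 38026597 to 99751717 counts. A gene is said to have risen, fallen or changed where the adjusted p of edgeR's quasi-likelihood test was below 0.1. Where its log2 fold change was also beyond 1.5 in either direction, it is said to pass both thresholds. MUC1 fell on MUC1 silencing, from 101, 83.1 and 86.6 CPM to 19.7, 21.2 and 23.3 CPM (log2 fold change -2.06, edgeR adjusted p = 2.96e-15). MYC fell on MYC silencing, from 439, 418 and 386 CPM to 244, 279 and 297 CPM (-0.62, edgeR adjusted p = 9.05e-05). MUC1 rose on MYC silencing (1.25, edgeR adjusted p = 5.06e-06) and with GO-203 (0.33, edgeR adjusted p = 0.00191), and MYC rose on MUC1 silencing (0.25, edgeR adjusted p = 5.01e-05). VIM and CD44 were above 500 CPM in every library, whereas ESR1, EPCAM, PGR and CDH1 were at most 1.51 CPM. ERBB2 was at 18.4 to 42.0 CPM. Of 5 markers of leukocytes, endothelium and fibroblasts, CDH5 stayed at or below 0.104 CPM. The sum of the 5 was 16.7 to 27.8 CPM in 2D cells and 7.01 to 8.74 CPM in 3D cells, with 8.62 to 18.5 CPM in the other groups, but its members moved in different directions. In 3D against 2D cells the fibroblast genes DCN (-3.85) and LUM (-5.33) and the leukocyte gene PTPRC (-4.30) fell, and the endothelial gene PECAM1 rose from 0.0114 to 6.76 CPM. DCN also rose with GO-203 (1.23) and on MYC silencing (1.92), and LUM on MUC1 silencing (2.57) and MYC silencing (1.47). PECAM1 fell on MUC1 silencing (-0.43) and rose on MYC silencing (0.45). The part of these markers in the results below was not tested.

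The members lie on 7 chromosomes of GRCh38, and each is annotated as a protein-coding gene. ID1 spans chr20:31605283-31606515, ID2 chr2:8678845-8684461, ID3 chr1:23557926-23559501 on the minus strand, and ID4 chr6:19837370-19842197. BMP2 spans chr20:6767686-6780246, BMP4 chr14:53949736-53958761 on the minus strand, and BMP6 chr6:7726099-7881728. SMAD6 spans chr15:66702236-66782849 and BAMBI chr10:28677510-28682932. Genes on the opposite strand overlap 16.3% of the exonic bases of BMP4, 6.55% of those of ID2 and 5.60% of those of BMP6, and the strand setting of the counting is not given in the sources used here.

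RefSeq promoters, from 250 bases before the start site to 50 after it, were found for 9 of the 10 listed genes in GRCh38.p14, with none for BMP2. They were searched on both strands for GGCGCC, a GC-rich element bound by SMAD1 and SMAD5, and for CAGAC, the SMAD box. They were also searched for CACGTG, the E-box bound by MYC with MAX, and for CATCTG and CAGGTG, E-boxes bound by E proteins. GGCGCC occurred in 19.2%, CAGAC in 45.3%, CACGTG in 7.26%, CATCTG in 14.7% and CAGGTG in 20.6% of 35116 promoters. The BAMBI promoter held GGCGCC 3 times and CAGAC 2 times. The ID3 and ID4 promoters held CAGAC 1 time each and no GGCGCC. No occurrence of these 5 sequences was found in the ID1, ID2, BMP6 or SMAD6 windows. Of the 3 BMP4 windows, each held CAGAC 1 time, the most upstream held GGCGCC 2 times, and the one nearest the gene's end held CACGTG 1 time. Both GREM1 windows held CAGAC 2 times and the more upstream of them also GGCGCC 2 times. Below are the promoters of ID1 and ID3, whose levels followed each other most closely among the members, and of ID4 and BAMBI, the other members with the largest differences between 3D and 2D cells. They were chosen after these values were seen. Capitals mark the GC-rich element and, on either strand, the SMAD box. The windows lie at chr20:31605039-31605338 (plus strand), chr1:23559452-23559751 (minus), chr6:19837120-19837419 (plus) and chr10:28677271-28677570 (plus).
ID1: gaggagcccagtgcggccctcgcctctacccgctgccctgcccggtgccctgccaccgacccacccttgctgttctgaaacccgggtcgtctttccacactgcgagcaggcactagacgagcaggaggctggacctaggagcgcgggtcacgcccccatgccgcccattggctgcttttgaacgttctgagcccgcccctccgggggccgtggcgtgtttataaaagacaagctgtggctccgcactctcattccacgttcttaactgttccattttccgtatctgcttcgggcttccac
ID3: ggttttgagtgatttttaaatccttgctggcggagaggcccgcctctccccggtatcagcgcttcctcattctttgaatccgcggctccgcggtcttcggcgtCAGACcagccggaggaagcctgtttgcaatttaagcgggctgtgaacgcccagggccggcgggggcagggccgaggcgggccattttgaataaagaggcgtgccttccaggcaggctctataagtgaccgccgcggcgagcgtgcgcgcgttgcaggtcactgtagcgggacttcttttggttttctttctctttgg
ID4: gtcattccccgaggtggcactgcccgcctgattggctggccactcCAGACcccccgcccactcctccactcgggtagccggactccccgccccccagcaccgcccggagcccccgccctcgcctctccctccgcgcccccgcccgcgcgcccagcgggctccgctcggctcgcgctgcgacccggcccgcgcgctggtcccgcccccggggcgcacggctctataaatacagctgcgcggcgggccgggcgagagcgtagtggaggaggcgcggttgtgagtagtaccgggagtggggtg
BAMBI: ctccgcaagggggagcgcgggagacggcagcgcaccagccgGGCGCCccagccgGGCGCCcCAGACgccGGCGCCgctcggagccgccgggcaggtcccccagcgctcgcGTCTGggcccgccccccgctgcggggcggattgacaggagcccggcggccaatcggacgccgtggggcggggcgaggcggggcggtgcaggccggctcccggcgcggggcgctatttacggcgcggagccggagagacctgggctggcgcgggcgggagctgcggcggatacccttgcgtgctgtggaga

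The comparison of 3D with 2D cells asks how these genes differed in serially passaged mammospheres. ID1, ID3, ID4 and both inhibitors fell by over 1.5 on the log2 scale in 3D cells, ID2 fell by less, and BMP4 and BMP2 rose. Of 9 members tested, 6 fell and 2 rose, against 31.7% of all genes lower and 32% higher in this comparison. Past both thresholds were 5 of the members that fell and 1 that rose, where 9.29% of all genes passed as lower and 6.9% as higher. The median log2 fold change was -4.01 over the 9 members and -0.01 over all genes tested. ID3 and ID4 passed the filter on low counts only through their 2D libraries, so a call for them could only be a fall. The counts and the median of the members include both. In bulk cultures, fewer cells expressing a gene and less RNA per cell cannot be told apart.

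ID3, per kilobase of exons the highest ID gene in 2D cells, was there at 211, 236 and 199 CPM. In 3D cells it was at 0.125, 0.156 and 0.124 CPM, on 22 counts over the 3 libraries. The groups were separated by 3 orders of magnitude, and the log2 fold change was -10.63 (SE 0.27, edgeR adjusted p = 2.50e-18). ID4, the member of the family most often described as acting against the other ID proteins, was at 137, 132 and 137 CPM in 2D cells. In 3D cells it was counted 0, 0 and 4 times. The ratio of 2D over 3D was 5800, with a 95% counting interval of 2265 to 21287, or 1605 to 47895 if each count is 1 of a pair of mates. All 4 counts came from 3D replicate 3, so the ratio rests on that library. The fitted log2 fold change was -12.31, and -15.78 without it, where the 3D group is at 0. Such fitted values depend on the prior count and are no bound.

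ID1, a classical BMP target, was at 134, 165 and 151 CPM in 2D cells and at 8.43, 8.23 and 9.27 CPM in 3D cells. The log2 fold change was -4.12 (SE 0.08, edgeR adjusted p = 6.26e-16). ID2 was at 120, 118 and 107 CPM in 2D cells and at 49.96, 45.4 and 54.9 CPM in 3D cells. It fell by less than the other ID genes, with a log2 fold change of -1.20 (95% interval -1.35 to -1.05, edgeR adjusted p = 3.85e-10). No 3D library reached the lowest 2D library for any ID gene.

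Among the ligands, BMP4 rose from 9.09, 8.52 and 6.92 CPM in 2D cells to 24.9, 23.4 and 26.5 CPM in 3D cells. Its log2 fold change was 1.61 (SE 0.10, edgeR adjusted p = 9.96e-10). BMP2 rose from 1.33, 1.81 and 1.30 CPM to 3.11, 2.69 and 2.85 CPM, a log2 fold change of 0.95 (SE 0.20, edgeR adjusted p = 0.000667). Both ligands were higher in every 3D library than in every 2D library. BMP6 was below 1 CPM in both groups, which overlapped, and its log2 fold change of 0.13 had an interval of -0.88 to 1.14 (edgeR adjusted p = 0.833).

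SMAD6 was at 31.6, 28.3 and 25.8 CPM in 2D cells and at 2.05, 1.76 and 1.55 CPM in 3D cells. Its log2 fold change was -4.01 (SE 0.13, edgeR adjusted p = 8.24e-14). BAMBI was at 91.6, 86.0 and 85.4 CPM in 2D cells and at 2.99, 3.55 and 3.72 CPM in 3D cells (log2 fold change -4.68, SE 0.08, edgeR adjusted p = 1.38e-16). The groups did not overlap for either inhibitor. In all, 8 of the 9 members did not overlap between 3D and 2D cells, and 64.2% of all genes did not.

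The low ID state was not limited to the untransduced mammospheres. Each of the 18 mammosphere libraries, whatever the line or treatment, was below all 3 2D libraries for ID1, ID2, ID3, ID4, SMAD6 and BAMBI. Over the 22652 genes that passed the filter on low counts in the 21 libraries, 10.1% were lower and 9.54% higher in this way. The highest mammosphere library was at 36.2 CPM for ID1, 70.3 CPM for ID2, 4.81 CPM for ID3 and 0.425 CPM for ID4. For SMAD6 it was at 2.65 CPM and for BAMBI at 7.71 CPM. BMP4 was the 1 member for which all 18 lay above all 2D libraries, with 9.57 CPM as the lowest mammosphere value.

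**Figure D1:**
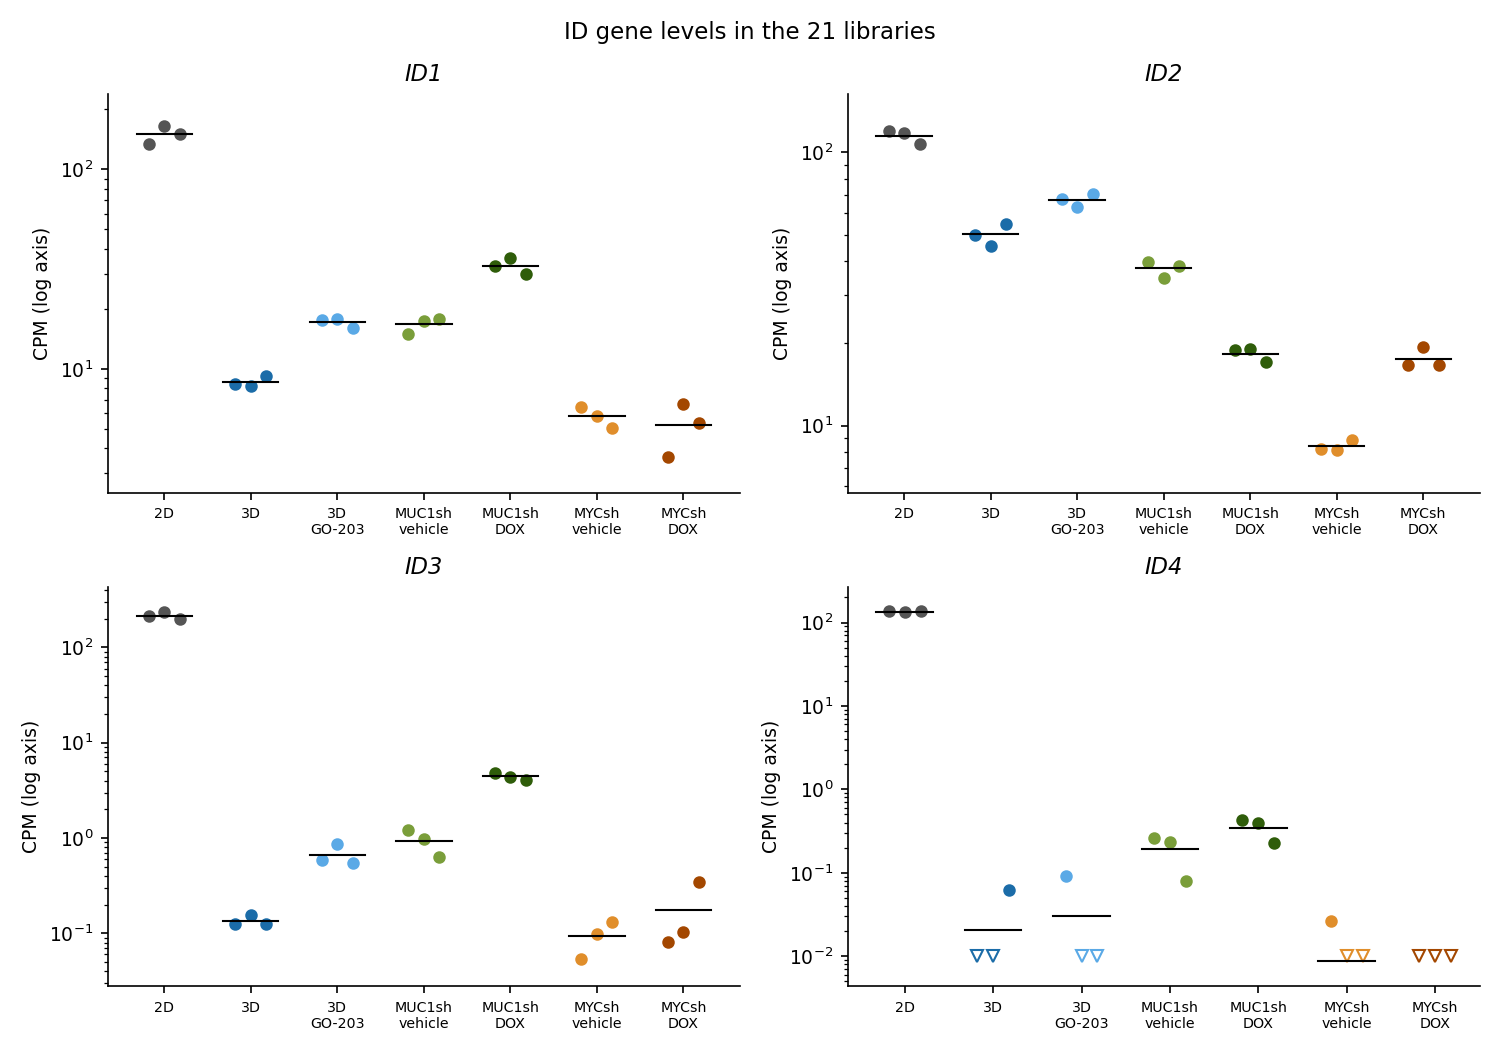
CPM of ID1, ID2, ID3 and ID4 on log axes in the 3 libraries of each of the 7 groups, with the group mean as a bar and libraries with 0 counts as open triangles at the bottom. All 18 mammosphere libraries sit below the 3 2D libraries in each panel, and ID3 and ID4 are below 5 CPM outside 2D culture.

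The composition of the ID pool differed as well. Per kilobase of merged exons, the ID genes of 2D cells summed to 352 ± 23.0 CPM per kb and those of 3D cells to 29.7 ± 2.58 (SD, n = 3). Of the 2D sum, ID3 made up 40.8%, ID1 34.5%, ID2 14.8% and ID4 9.96%. In 3D cells ID2 made up 76.1% and ID1 23.6%, with 0.307% for ID3. The BMP2, BMP4 and BMP6 sum was 3.18 ± 0.434 CPM per kb in 2D cells against 8.99 ± 0.469 for 3D cells (SD, n = 3), and BMP4 made up 83.1% and 89.4% of it.

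**Figure D2:**
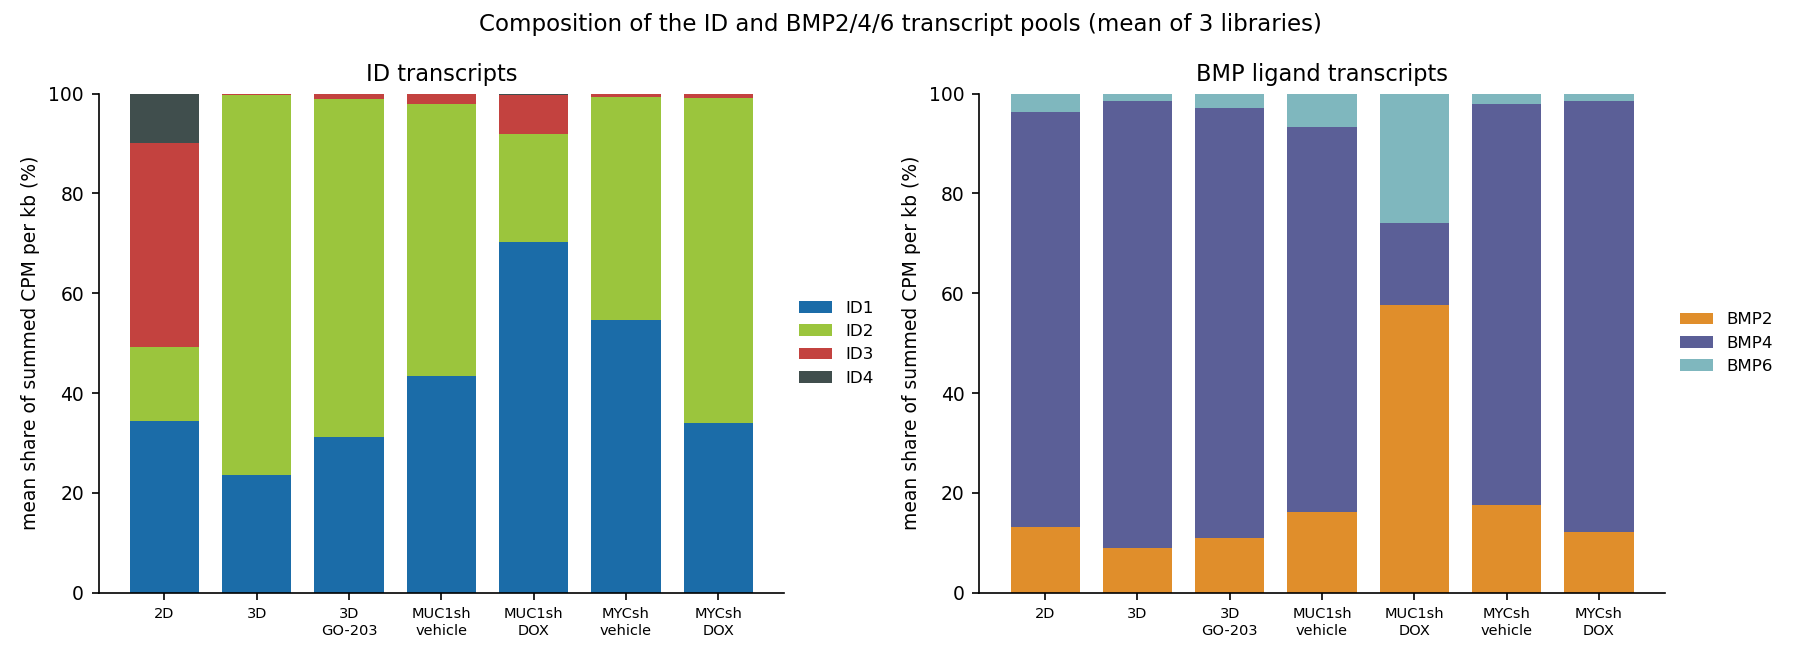
Mean share of each gene in the summed CPM per kb of the ID genes (left) and of BMP2, BMP4 and BMP6 (right), in percent, for the 7 groups of 3 libraries. ID2 takes 76.1% of the ID pool in 3D cells, ID1 takes 70.2% after MUC1 silencing, and BMP2 and BMP6 take 57.5% and 25.9% of the ligand pool in that group.

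MUC1 silencing asks which of these genes respond when MUC1 is lowered in mammospheres. Adding DOX to tet-MUC1shRNA mammospheres was followed by higher BMP2 and BMP6, higher BAMBI, ID1 and ID3, and lower ID2 and SMAD6. Of 9 members tested, 5 rose and 2 fell, against 30.7% of all genes higher and 31.6% lower. Past both thresholds were 4 members, all of them higher, where 5.74% of all genes passed as higher and 3.08% as lower. The median log2 fold change was 0.998 over the members and 0.02 over all genes.

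BMP2 rose from 2.14, 2.82 and 2.36 CPM with vehicle to 42.3, 37.5 and 38.7 CPM with DOX. Its log2 fold change was 4.04 (SE 0.10, edgeR adjusted p = 6.23e-18). BMP6 rose from 0.861, 1.27 and 1.12 CPM to 20.2, 19.3 and 17.3 CPM, a log2 fold change of 4.14 (SE 0.14, edgeR adjusted p = 2.78e-16). The DOX libraries of this line held the highest BMP2 and BMP6 levels of the series, apart from every other group. BMP4 was at 10.5, 9.57 and 10.5 CPM with vehicle and at 9.89, 9.66 and 10.2 CPM with DOX. These ranges overlapped, and the log2 fold change of -0.02 had an interval of -0.21 to 0.17 (edgeR adjusted p = 0.860). The ligand pool went from 4.28 ± 0.0789 to 19.4 ± 0.970 CPM per kb (SD, n = 3), and the share of BMP4 in it from 77.2% to 16.6%.

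BAMBI rose from 0.209, 0.329 and 0.393 CPM to 4.48, 5.10 and 4.81 CPM, with a log2 fold change of 3.93 (SE 0.26, edgeR adjusted p = 4.33e-12). SMAD6, the other inhibitor, fell from 2.01, 1.74 and 2.10 CPM to 0.832, 1.10 and 0.953 CPM (log2 fold change -0.99, SE 0.23, edgeR adjusted p = 0.000804). The inhibitors thus moved in opposite directions, each without overlap of its groups.

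ID1 rose from 14.9, 17.5 and 17.9 CPM to 32.9, 36.2 and 29.7 CPM, a log2 fold change of 0.998 (SE 0.08, edgeR adjusted p = 8.58e-10). ID3 rose from 1.201, 0.988 and 0.629 CPM to 4.81, 4.41 and 4.04 CPM (2.28, SE 0.21, edgeR adjusted p = 5.86e-09). ID2 fell from 39.9, 34.8 and 38.5 CPM to 18.9, 19.0 and 17.1 CPM (-1.01, SE 0.07, edgeR adjusted p = 4.89e-11). The groups did not overlap for any of these 3 genes, and the DOX libraries stayed far under the 2D level. ID4 was at 0.0787 to 0.261 CPM with vehicle and 0.227 to 0.425 CPM with DOX, on 24 and 62 counts (log2 fold change 0.93, edgeR adjusted p = 0.135). The ID pool was 31.3 ± 0.906 CPM per kb with vehicle and 38.04 ± 3.21 with DOX (SD, n = 3), in which the share of ID2 went from 54.5% to 21.8% and that of ID1 from 43.4% to 70.2%. Of the 9 members, 7 did not overlap between the groups, against 62.4% of all genes.

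**Figure D3:**
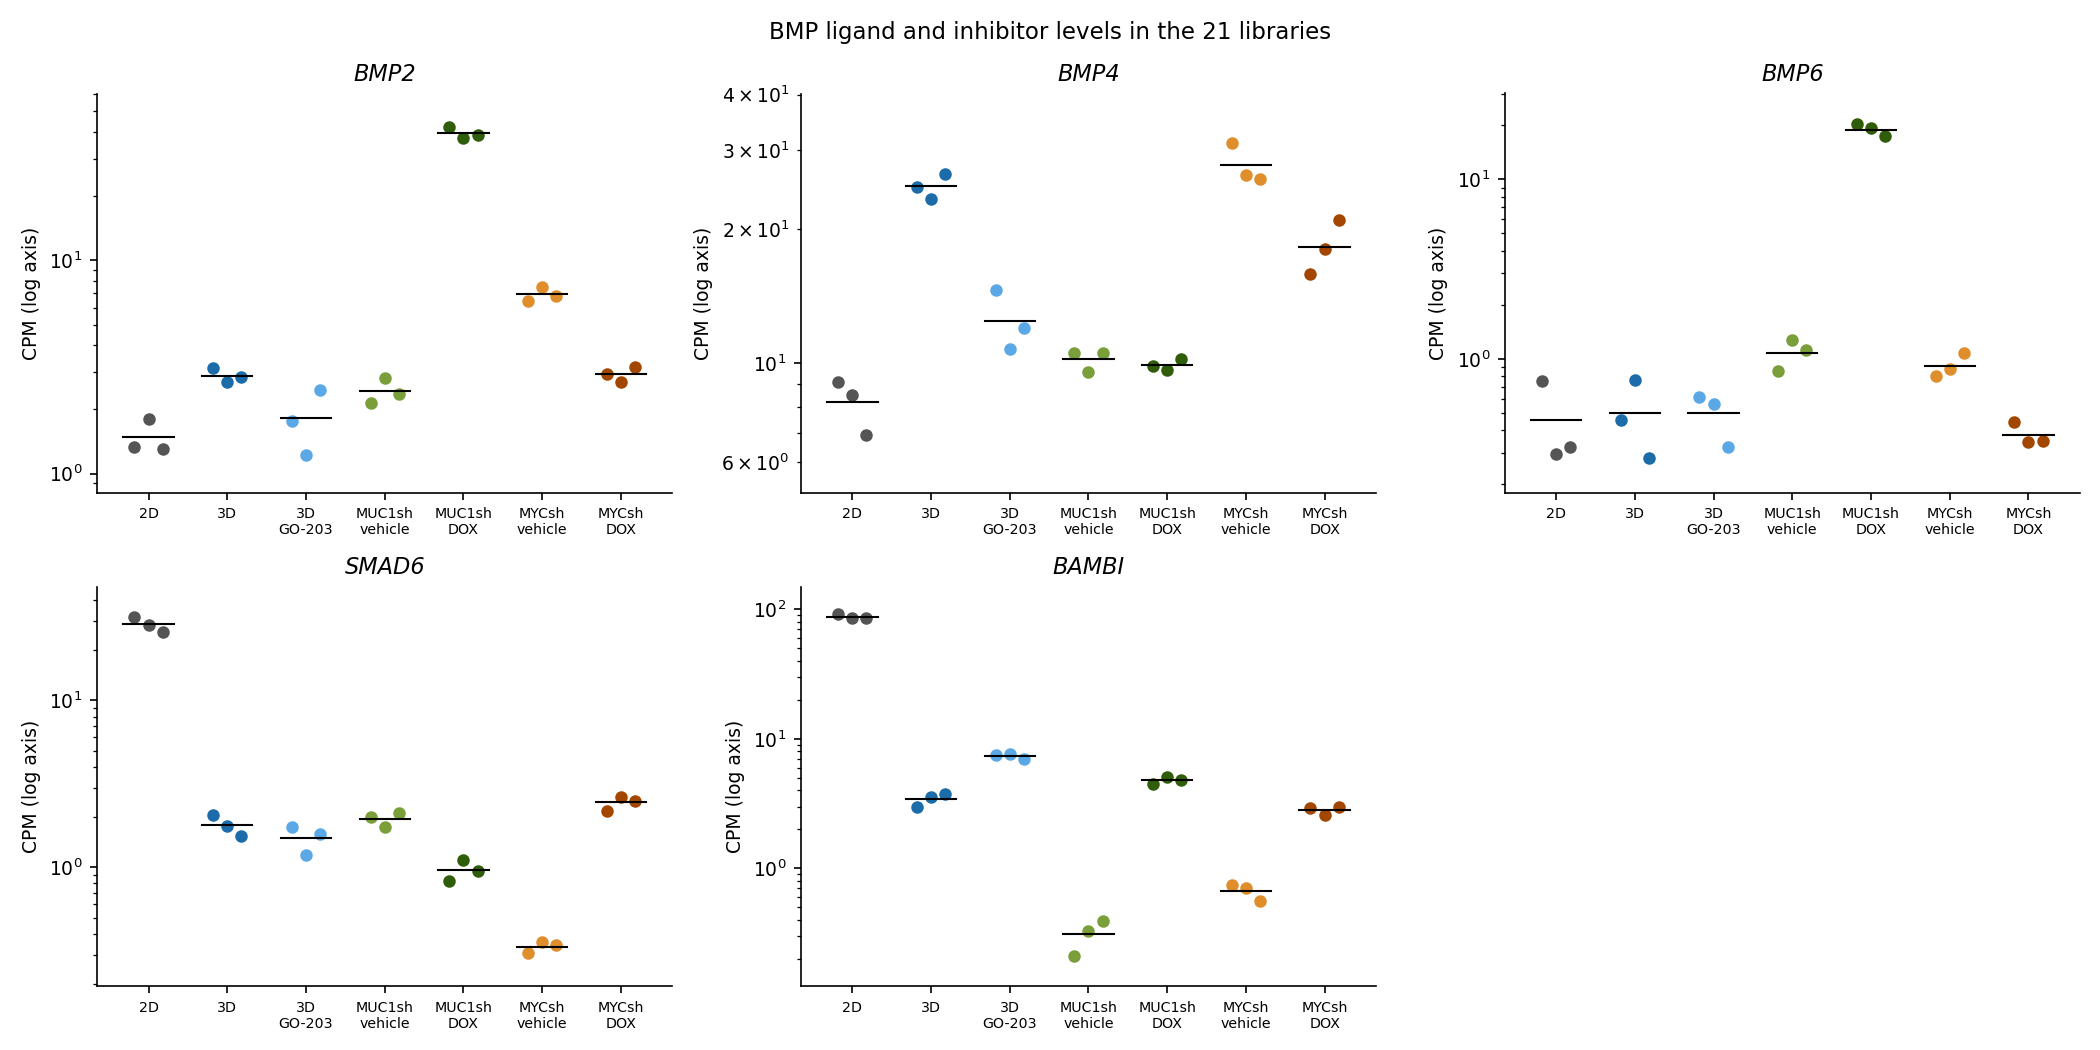
CPM of BMP2, BMP4, BMP6, SMAD6 and BAMBI on log axes in the 3 libraries of each group, with the group mean as a bar. The tet-MUC1shRNA DOX libraries stand apart for BMP2 (37.5 to 42.3 CPM) and BMP6 (17.3 to 20.2 CPM), and the 2D libraries for SMAD6 and BAMBI.

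GO-203 addresses the same protein with an inhibitor instead of an shRNA. Treated mammospheres had higher ID1, ID2, ID3 and BAMBI and lower BMP4 and BMP2. Of 8 members tested, 4 rose and 2 fell, against 11.1% of all genes higher and 12.9% lower. ID3 was the 1 member past both thresholds, where 0.498% of all genes passed as higher and 0.26% as lower. It passed the filter on low counts only through the GO-203 libraries, so a call for ID3 could only be a rise. The median log2 fold change was 0.23 over the members and 0.02 over all genes. ID4, at 4 counts in each group of 3 libraries, was not tested. This comparison uses the same 3D libraries as that of 3D with 2D cells, so the values of both are given side by side and not as independent.

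ID1 rose from 8.43, 8.23 and 9.27 CPM in 3D cells to 17.7, 17.8 and 16.1 CPM with GO-203. Its log2 fold change was 1.02 (SE 0.09, edgeR adjusted p = 6.71e-08), next to -4.12 for 3D against 2D. ID3 rose from 0.125, 0.156 and 0.124 CPM to 0.588, 0.862 and 0.543 CPM, on 22 and 92 counts (2.31, SE 0.49, edgeR adjusted p = 0.00124). ID2 rose by less, from 49.96, 45.4 and 54.9 CPM to 67.5, 63.1 and 70.3 CPM (0.45, SE 0.06, edgeR adjusted p = 2.46e-05). For these ID genes all 3 treated libraries were above all 3 controls.

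BAMBI rose from 2.99, 3.55 and 3.72 CPM to 7.50, 7.71 and 7.05 CPM (log2 fold change 1.14, SE 0.14, edgeR adjusted p = 2.71e-06). BMP4 fell from 24.9, 23.4 and 26.5 CPM to 14.6, 10.8 and 11.99 CPM (-0.97, SE 0.09, edgeR adjusted p = 1.24e-07). Neither gene overlapped between the groups, and in all 6 of the 8 members tested did not, against 33.1% of all genes tested. BMP2 fell from 3.11, 2.69 and 2.85 CPM to 1.76, 1.22 and 2.48 CPM (-0.62, SE 0.22, edgeR adjusted p = 0.0518). That call was lost without 3D replicate 1 (-0.56, edgeR adjusted p = 0.153), without GO-203 replicate 1 (-0.59, edgeR adjusted p = 0.128) and without GO-203 replicate 2 (-0.42, edgeR adjusted p = 0.208). SMAD6 and BMP6 overlapped between the groups, with log2 fold changes of -0.21 (interval -0.68 to 0.26) and 0.02 (interval -0.89 to 0.93).

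MYC silencing asks the same of MYC, in mammospheres at passage 8. DOX in the tet-MYCshRNA line was followed by higher SMAD6, BAMBI and ID2 and by lower BMP2, BMP4 and BMP6. Of 7 members tested, 3 rose and 3 fell, against 30.3% of all genes higher and 28.1% lower. Past both thresholds were 2 members, both higher, where 7.06% of all genes passed as higher and 3.39% as lower. The median log2 fold change was -0.16 over the members and 0.01 over all genes. ID3 and ID4 had too few counts to be tested.

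SMAD6 rose from 0.306, 0.354 and 0.343 CPM to 2.18, 2.65 and 2.51 CPM (log2 fold change 2.84, SE 0.22, edgeR adjusted p = 2.52e-06). BAMBI rose from 0.745, 0.709 and 0.555 CPM to 2.94, 2.58 and 2.97 CPM (2.05, SE 0.20, edgeR adjusted p = 1.27e-05). Here both inhibitors moved upward, and neither overlapped between vehicle and DOX. ID2 rose from 8.21, 8.14 and 8.90 CPM to 16.7, 19.4 and 16.7 CPM (1.04, SE 0.11, edgeR adjusted p = 1.63e-05). ID1 was at 6.41, 5.83 and 5.08 CPM with vehicle and 3.63, 6.68 and 5.36 CPM with DOX. Its groups overlapped, and the log2 fold change of -0.16 had an interval of -0.61 to 0.28 (edgeR adjusted p = 0.527).

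BMP2 fell from 6.47, 7.54 and 6.79 CPM to 2.94, 2.68 and 3.16 CPM (log2 fold change -1.26, SE 0.13, edgeR adjusted p = 2.14e-05). BMP4 fell from 31.1, 26.4 and 25.9 CPM to 15.9, 18.0 and 20.9 CPM (-0.63, SE 0.12, edgeR adjusted p = 0.00118). BMP6 fell from 0.798, 0.876 and 1.08 CPM to 0.444, 0.344 and 0.348 CPM (-1.30, SE 0.29, edgeR adjusted p = 0.00373). All 3 ligands were lower in every DOX library than in every vehicle library. Of the 7 members tested, 6 did not overlap between vehicle and DOX, against 59.5% of all genes tested.

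**Figure D4:**
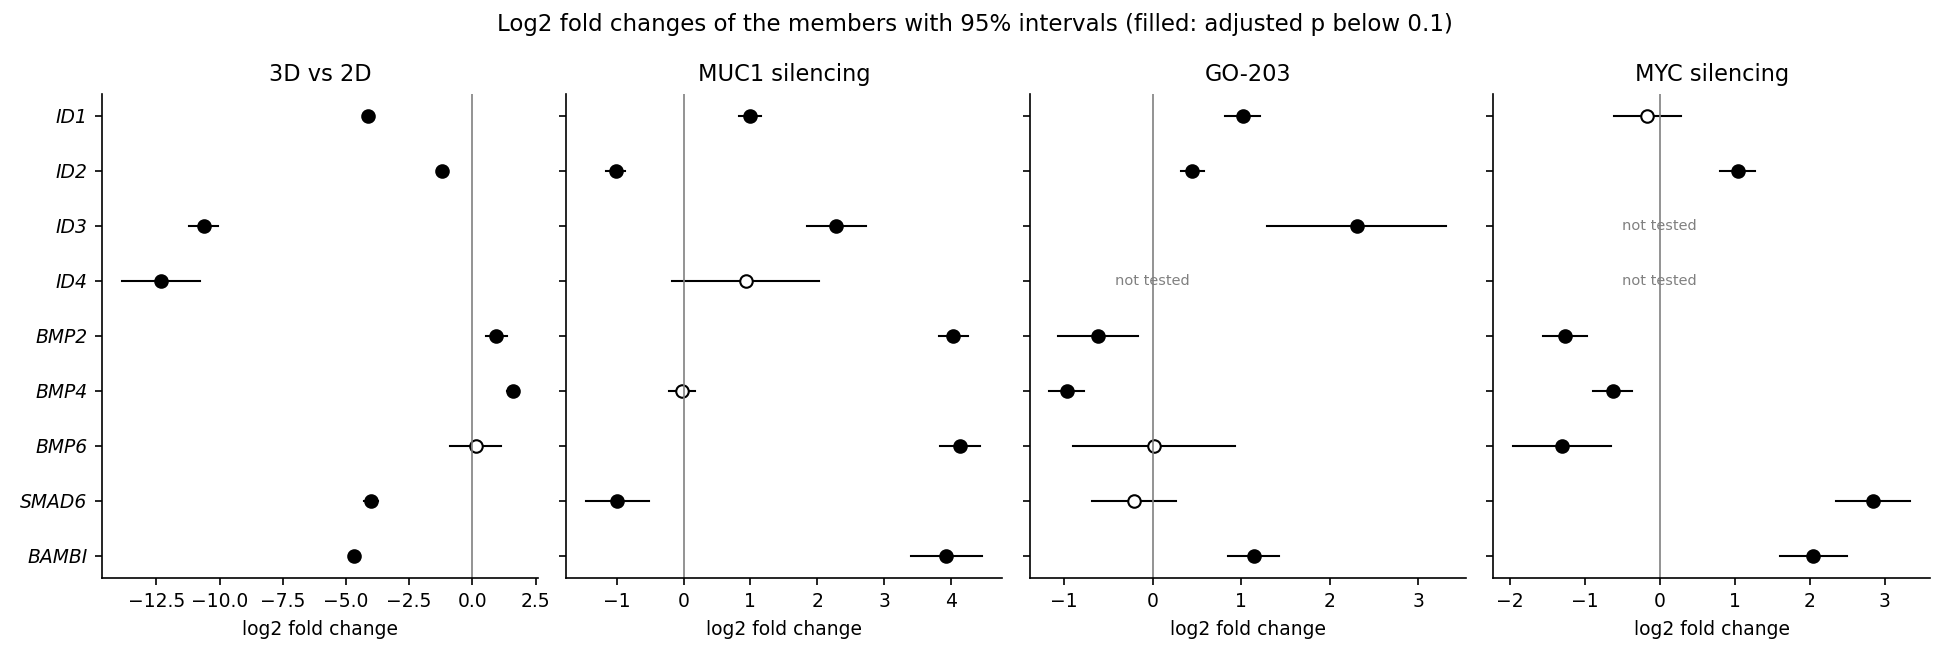
Log2 fold change of each member in the 4 comparisons, with 95% intervals as lines, filled points for an edgeR adjusted p below 0.1 and a separate horizontal scale in each panel. ID3 and ID4 lie beyond -10 in 3D against 2D cells, BMP2, BMP6 and BAMBI lie near 4 on MUC1 silencing, and SMAD6 is highest on MYC silencing.

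The responses to MUC1 and MYC silencing were set against each other in a test of their difference over the 12 libraries of both lines. The difference passed for 7 of 9 members, against 52.9% of all genes. It was positive for BMP6 (log2 difference 5.42, SE 0.26), BMP2 (5.29, SE 0.16), BAMBI (1.88, SE 0.31), ID1 (1.15, SE 0.22) and BMP4 (0.59, SE 0.15). It was negative for SMAD6 (-3.85, SE 0.30) and ID2 (-2.07, SE 0.13). BMP2, BMP6, SMAD6 and ID2 changed in opposite directions in the 2 lines, whereas BAMBI rose in both and by more on MUC1 silencing. The vehicle levels of ID2, SMAD6 and BMP2 were already apart between the lines, and those of BMP6 overlapped. Mean ID2 went from 37.7 to 18.3 CPM in the tet-MUC1shRNA line and from 8.42 to 17.6 CPM in the tet-MYCshRNA line. SMAD6 went from 1.95 to 0.962 CPM and from 0.334 to 2.45 CPM in the same order. For BMP2 the means went from 2.44 to 39.5 CPM and from 6.93 to 2.93 CPM. MUC1 and MYC RNA each rose where the other was silenced, by 1.25 and 0.25 on the log2 scale. The line and the passage differ along with the gene silenced and cannot be told apart from it.

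The same test was made between MUC1 silencing and GO-203, which share no library. The shRNA vector, DOX and the vehicle differ between them along with the way MUC1-C was targeted and cannot be told apart from it. The difference passed for 6 of 9 members, against 44.9% of all genes. BMP2 and BMP6 differed by 4.63 (SE 0.21) and 4.13 (SE 0.37) on the log2 scale, with rises under the shRNA next to -0.62 and 0.02 with GO-203. BAMBI differed by 2.79 (SE 0.28), BMP4 by 0.95 (SE 0.13), and ID2, which rose with GO-203 and fell with the shRNA, by -1.46 (SE 0.10). The base level of BAMBI was 0.310 CPM in tet-MUC1shRNA vehicle and 3.42 CPM in 3D cells. Its level was 4.79 CPM with DOX in the tet-MUC1shRNA line and 7.42 CPM with GO-203. SMAD6 differed by -0.78 (SE 0.31, edgeR adjusted p = 0.0498), a call that was lost without any 1 of 4 libraries, with values of -0.73 to -0.67. ID1 and ID3 rose in both, and the difference was -0.02 for ID1 (interval -0.27 to 0.23) and -0.02 for ID3 (interval -0.95 to 0.91).

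Across the 7 groups, ID1 ran from 2D cells (150 ± 15.9 CPM) through tet-MUC1shRNA DOX (32.9 ± 3.22), GO-203 (17.2 ± 0.951), tet-MUC1shRNA vehicle (16.7 ± 1.62) and 3D (8.64 ± 0.548) to tet-MYCshRNA vehicle (5.77 ± 0.670) and DOX (5.22 ± 1.53; SD, n = 3 throughout). GO-203 and tet-MUC1shRNA vehicle overlapped, as did both tet-MYCshRNA groups, and the other neighbours were apart. ID3 followed a similar order, with tet-MUC1shRNA DOX (4.42 ± 0.387 CPM) next to 2D cells and tet-MYCshRNA vehicle (0.0941 ± 0.0389 CPM) last. The order of ID2 was different. GO-203 (66.9 ± 3.62 CPM) and 3D (50.1 ± 4.78 CPM) came next to 2D cells, and tet-MYCshRNA vehicle (8.42 ± 0.417 CPM) was last.

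Over the 21 libraries, log2 CPM of ID1 and ID3 had a Pearson r of 0.972, and r was 0.919 over the 18 mammosphere libraries alone. ID1 and ID2 had an r of 0.674 and 0.375 in the same sets. Among 13601 genes, those most like ID1 were ID3, BTBD3 (0.962) and METRN (0.957), and those most like ID3 were COL1A1 (0.974), ID1 and BTBD3 (0.965). For ID2 they were ADAMTS12 (0.958), FSTL1 (0.951) and DMRTA1 (0.948). In the mammosphere libraries BMP2 and BMP6 had an r of 0.901, and BMP4 had an r of -0.804 with ID1 and -0.862 with ID3. Libraries of one group share their treatment and are not independent points, and the 2D libraries stand far from the rest, so these values are descriptions.

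The E proteins, the binding partners of the ID proteins, were all measured. TCF4 fell from 170 ± 3.04 CPM in 2D cells to 43.98 ± 1.05 CPM in 3D cells (SD, n = 3; log2 fold change -1.95, edgeR adjusted p = 3.83e-14). TCF3 also fell there, and TCF12 did not pass, where 31.7% of all genes fell. On MUC1 silencing TCF4 rose (0.48, edgeR adjusted p = 3.57e-07), while TCF12 (-0.63, edgeR adjusted p = 7.29e-10) and TCF3 fell (all genes: 30.7% and 31.6%). TCF3 was the 1 E protein that changed with GO-203 (-0.27, edgeR adjusted p = 0.00235) and on MYC silencing (-0.92, edgeR adjusted p = 0.000103), and it fell in both, as did 12.9% and 28.1% of all genes. Medians of the 3 genes were -0.40, -0.54, 0.10 and -0.13.

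Other BMP ligands, of which 11 were listed and 6 or 7 tested per comparison, moved in mixed directions. In 3D against 2D cells 4 rose and 2 fell (all genes: 32% higher, 31.7% lower). BMP7 rose from 1.40 ± 0.0840 to 3.50 ± 0.183 CPM (SD, n = 3; log2 fold change 1.31, edgeR adjusted p = 1.06e-05), and BMP3, a ligand that acts against other BMPs, fell by 3.60 on the log2 scale (edgeR adjusted p = 1.25e-07). On MUC1 silencing 2 rose and 2 fell (all genes: 30.7% and 31.6%). GDF6 rose from 0.321 ± 0.0419 to 8.02 ± 0.788 CPM (SD, n = 3; 4.67, edgeR adjusted p = 1.59e-14) and BMP7 fell (-1.71, edgeR adjusted p = 5.49e-10). With GO-203, 2 rose and 1 fell (all genes: 11.1% and 12.9%), with GDF6 at 0.87 (edgeR adjusted p = 0.0609) and BMP7 at -0.59 (edgeR adjusted p = 0.0290). BMP5 was the 1 listed ligand of 7 that changed on MYC silencing (1.01, edgeR adjusted p = 0.000730), where 30.3% of all genes rose and 28.1% fell. The list's medians in the 4 comparisons, in this order, were 0.64, 0.35, 0.27 and 0.22, and those of all genes -0.01, 0.02, 0.02 and 0.01.

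Of the receptors and co-receptors, 9 of 11 were tested in each comparison. In 3D against 2D cells 7 fell and 2 rose (all genes: 31.7% lower, 32% higher), with a median of -0.71 against -0.01 for all genes. The type I receptor BMPR1B fell from 27.5 ± 0.465 to 6.28 ± 0.736 CPM (SD, n = 3; -2.13, edgeR adjusted p = 1.08e-11), and ENG, the co-receptor endoglin, rose from 0.369 ± 0.0652 to 3.23 ± 0.240 CPM (SD, n = 3; 3.11, edgeR adjusted p = 9.76e-09). On MUC1 silencing 3 rose, BMPR1B the most (0.88, edgeR adjusted p = 1.59e-06), and 5 fell, ENG the most (-2.13, edgeR adjusted p = 2.00e-10), where 30.7% of all genes rose and 31.6% fell. With GO-203, 2 rose and 1 fell (all genes: 11.1% and 12.9%), led by BMPR1B (0.32, edgeR adjusted p = 0.0756) and the type II receptor ACVR2B (-0.29, edgeR adjusted p = 0.0301). On MYC silencing 4 rose and 3 fell (all genes: 30.3% and 28.1%), led by the co-receptor RGMA (2.90, edgeR adjusted p = 1.60e-06) and by ACVR2B (-1.16, edgeR adjusted p = 2.88e-05). The medians of the other 3 comparisons were -0.26, 0.06 and 0.13.

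The SMADs and the SMURF ubiquitin ligases, 7 genes, were all tested. In 3D against 2D cells 4 fell and 1 rose (all genes: 31.7% lower, 32% higher). SMAD9 fell from 14.7 ± 1.79 to 1.44 ± 0.268 CPM (SD, n = 3; -3.36, edgeR adjusted p = 1.25e-11), and SMURF1 rose (0.62, edgeR adjusted p = 2.54e-07). On MUC1 silencing 3 rose and 3 fell (all genes: 30.7% and 31.6%), with SMAD1 at 0.79 (edgeR adjusted p = 1.54e-08) and SMAD9 at -1.83 (edgeR adjusted p = 9.94e-07). With GO-203 the inhibitory SMAD7 fell (-0.89, edgeR adjusted p = 0.00164) and none rose, where 12.9% of all genes fell and 11.1% rose. On MYC silencing SMURF1 rose (0.34, edgeR adjusted p = 0.00278) and 2 fell, SMURF2 the most (-0.67, edgeR adjusted p = 5.18e-06), next to 30.3% of all genes higher and 28.1% lower. Medians were -0.29, -0.08, 0.05 and -0.05.

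Of 16 genes listed as secreted BMP antagonists, 8 to 10 were tested per comparison. In 3D against 2D cells 6 fell and 2 rose (all genes: 31.7% lower, 32% higher), led by CHRDL2 (-3.64, edgeR adjusted p = 4.31e-09) and NBL1 (0.41, edgeR adjusted p = 0.00217). On MUC1 silencing 3 rose and 3 fell (all genes: 30.7% and 31.6%). CHRDL1 rose from 24.0 ± 0.671 to 44.6 ± 0.639 CPM (SD, n = 3; 0.92, edgeR adjusted p = 1.95e-11), and FSTL1 fell from 953 ± 24.9 to 380 ± 13.9 CPM (SD, n = 3; -1.30, edgeR adjusted p = 2.87e-16). With GO-203, 5 of 8 rose and 1 fell (all genes: 11.1% and 12.9%), and FSTL1 rose to 1600 ± 64.2 CPM from 1017 ± 10.97 (SD, n = 3; 0.68, edgeR adjusted p = 1.73e-10) while NBL1 fell (-0.45, edgeR adjusted p = 0.00243). On MYC silencing 5 of 10 rose and 1 fell (all genes: 30.3% and 28.1%), and BMPER rose from 10.2 ± 0.946 to 64.2 ± 2.31 CPM (SD, n = 3; 2.63, edgeR adjusted p = 1.33e-08). Medians were -0.33, 0.01, 0.33 and 0.43.

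Of 6 other transcription factors known as BMP targets, 4 were tested. ATOH8 fell from 6.90 ± 1.25 CPM in 2D cells to 0.367 ± 0.133 CPM in 3D cells (SD, n = 3; -4.27, edgeR adjusted p = 3.37e-10), and HEY1, also a Notch target, rose (2.22, edgeR adjusted p = 4.11e-09). Both directions held 2 genes there (all genes: 32% higher, 31.7% lower). On MUC1 silencing 1 rose and 3 fell (all genes: 30.7% and 31.6%), HEY1 the most (-1.63, edgeR adjusted p = 9.30e-14). ATOH8 was the 1 gene of this list that rose with GO-203 (2.50, edgeR adjusted p = 2.77e-06) and on MYC silencing (4.51, edgeR adjusted p = 3.54e-06), where 11.1% and 30.3% of all genes rose. On MYC silencing 2 fell, against 28.1% of all genes, with the bone regulator RUNX2 at -0.66 (edgeR adjusted p = 4.71e-05). Medians were 0.03, -0.76, -0.20 and -0.22.

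**Figure D5:**
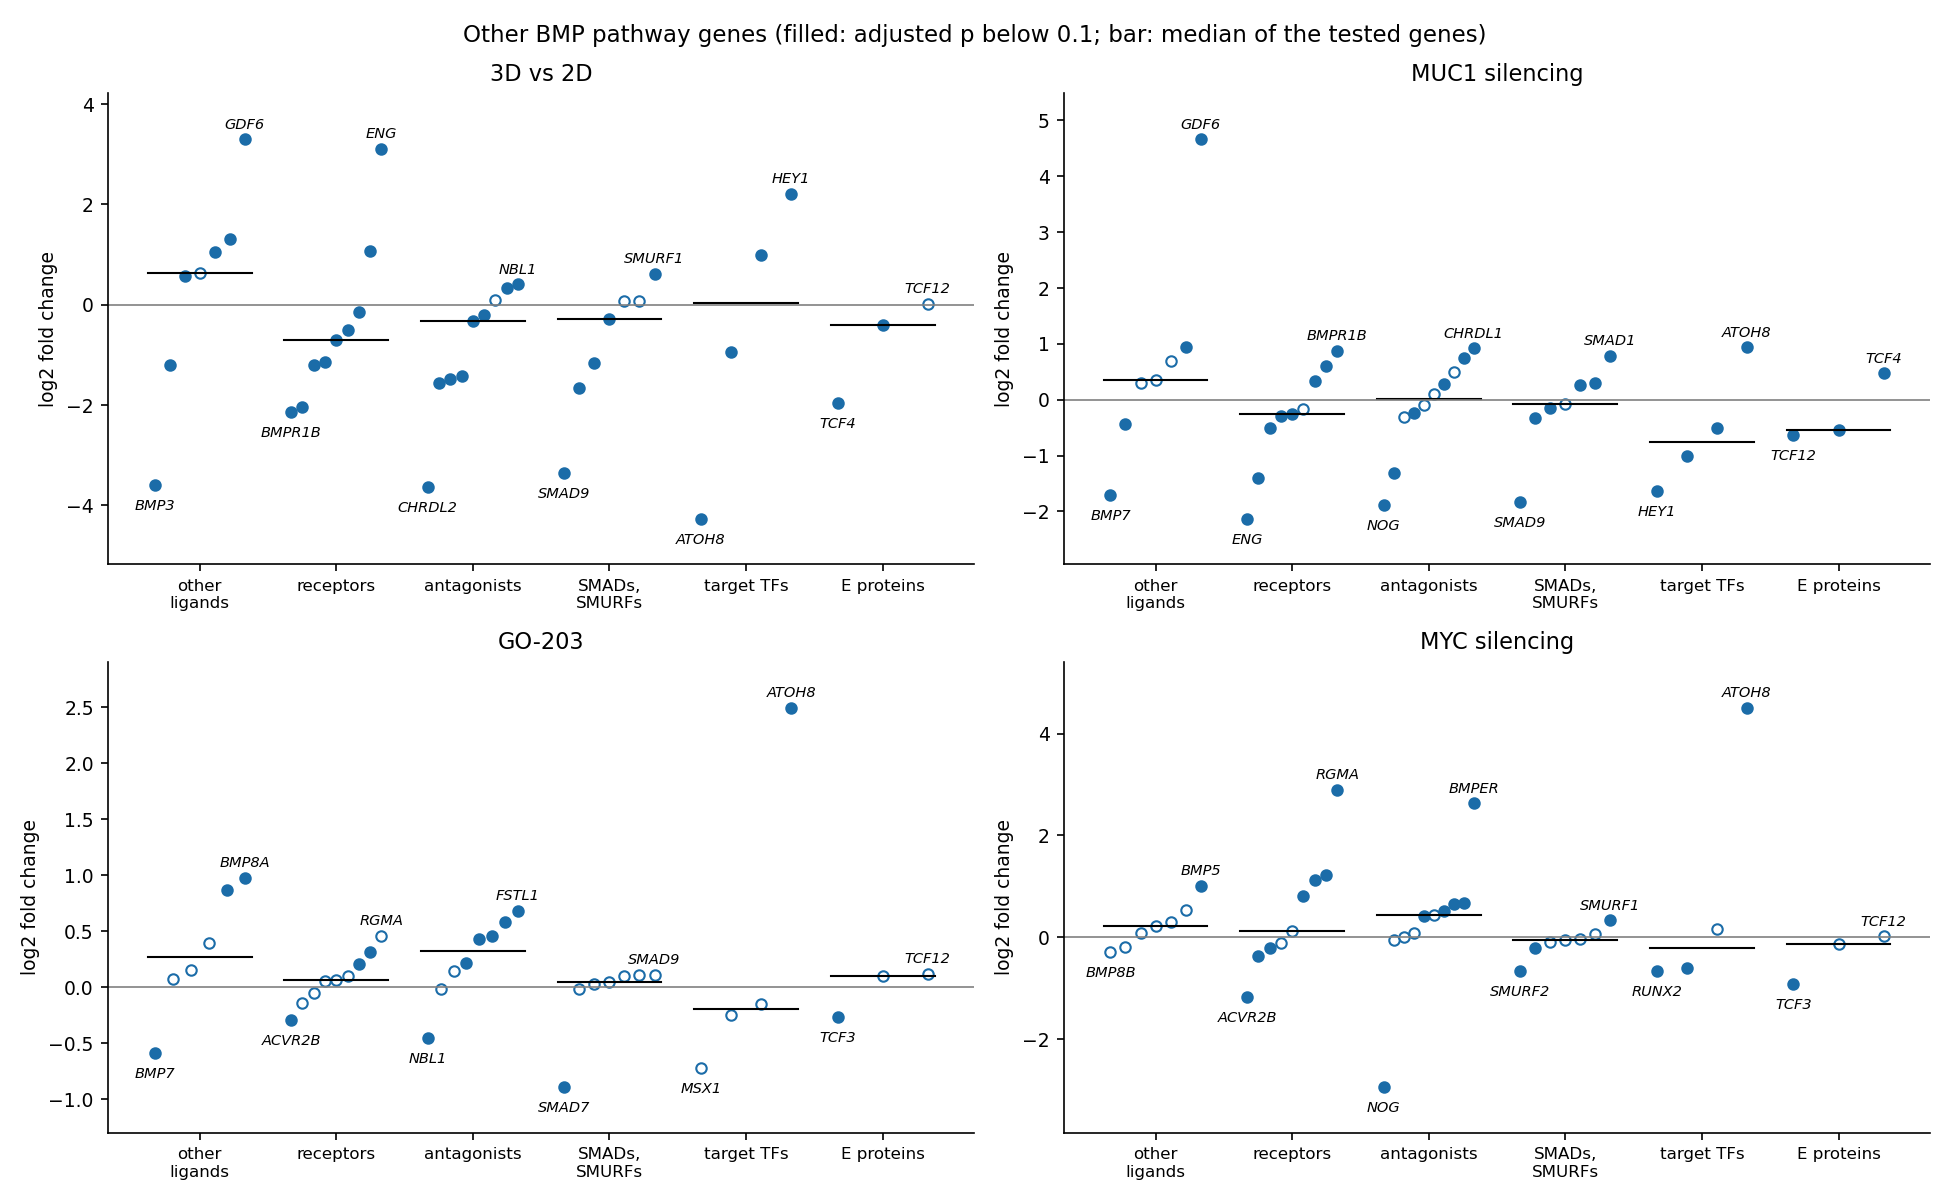
Log2 fold change of the other BMP pathway genes by list in the 4 comparisons, each point a gene, filled for an edgeR adjusted p below 0.1, with the median of the tested genes as a bar and a separate vertical scale in each panel. The lists hold genes moving in both directions in most panels, with GDF6 (4.67) the highest on MUC1 silencing and ATOH8 (4.51) on MYC silencing.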

How the data were processed

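Stranded mRNA libraries from 21 BT-549 cultures were sequenced with paired ends. The authors aligned reads to GRCh38 with STAR (2.7.3a in the submitters' processing notes), counted them per gene with featureCounts, and deposited the raw counts. Blank cells of the table were read as 0, and no blank fell on a member. Counts from 2 to 9 were even in 78.0% of cases, against 50.7% above 1000, so counting intervals were also computed on halved counts. Those intervals cover counting error only.

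The members and gene lists were chosen with earlier results of these data known. Each comparison was fitted to the 6 libraries it concerns with edgeR 4.0.16 in R 4.3.3 (filterByExpr, TMM, quasi-likelihood test, two-sided, Benjamini-Hochberg adjustment over all genes tested), and differences between responses over 12 libraries. SEs and 95% intervals are Wald values from the same fit. Of each list, the gene with the largest rise and that with the largest fall among those called and at 1 CPM or more in either group were named. Lengths, positions and overlaps came from GENCODE release 44 and promoters from RefSeq GRCh38.p14. Likeness was Pearson r of log2 CPM with a prior count of 2, given for ID1, ID3 and, by level, ID2. The steps were tested on simulated data with large changes in well-counted genes, and with less spread than in the MYC silencing fit. That test does not cover members at low counts. No replicate pair lay within sampling noise (chi-square per degree of freedom 4.36 to 52.8). Alternatives were DESeq2 1.42.0, other scalings, filters, thresholds and sample sets, the replicate block, other gene lengths, and leaving out each library. One of them, tet-MYCshRNA vehicle in place of 3D cells, was chosen after seeing the data.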

Additional observations from a re-analysis of the deposited data

Results flagged for a closer look

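These 13 results were picked out because the response of a member differed between 2 treatments in edgeR's test of the difference itself. Against MYC silencing, the response to MUC1 silencing was higher on the log2 scale for BMP6 (5.42, edgeR adjusted p = 9.24e-12), BMP2 (5.29, edgeR adjusted p = 5.31e-14) and BAMBI (1.88, edgeR adjusted p = 4.38e-05). It was also higher for ID1 (1.15, edgeR adjusted p = 0.000311) and BMP4 (0.59, edgeR adjusted p = 0.00312). It was lower for SMAD6 (-3.85, edgeR adjusted p = 6.09e-09) and ID2 (-2.07, edgeR adjusted p = 2.97e-10). Against GO-203, it was higher for BMP2 (4.63, edgeR adjusted p = 1.48e-15), BMP6 (4.13, edgeR adjusted p = 1.18e-09), BAMBI (2.79, edgeR adjusted p = 1.56e-09) and BMP4 (0.95, edgeR adjusted p = 1.40e-06). It was lower for ID2 (-1.46, edgeR adjusted p = 2.64e-12) and SMAD6 (-0.78, edgeR adjusted p = 0.0498). In the fits without 1 library, 12 of these kept their call, and SMAD6 against GO-203 lost it in 4 fits.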

How the results depend on the processing

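The number of members called stayed within 1.5 times the reported one under every alternative, with 8 in 3D against 2D cells in each fit without 1 library, 7 on MUC1 silencing, 5 to 6 with GO-203 and 6 on MYC silencing. Values near 0 changed sign. BMP4 on MUC1 silencing was 0.14 with library size alone and 0.0292 with at least 10 counts in every library, and -0.0725 to 0.0103 without 1 library. BMP6 with GO-203 was -0.0133 with all 21 libraries in one fit and -0.29 to 0.47 without 1 library, and BMP6 in 3D against 2D cells -0.30 to 0.67. The ID1 difference between MUC1 silencing and GO-203 was 0.0022 with RLE factors, 0.14 with library size alone and 0.0296 with at least 10 counts, and -0.0888 to 0.0517 without 1 library. That of ID3 was 0.0004, 0.14 and, with all 21 libraries, 0.0179, and -0.26 to 0.21 without 1 library. That of ID4 ran from -2.76 to 4.32, and ID1 on MYC silencing from -0.38 to 0.0329. ID4 in 3D against 2D cells ran from -15.78, without 3D replicate 3, to -11.80. The cause was not tested. Library size alone moved the median of all genes on MUC1 silencing from 0.02 to 0.19, and no called member changed direction with it.

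BMP2 with GO-203 lost its call at an adjusted p below 0.05, and SMAD6 between MUC1 silencing and GO-203 lost its call with library size alone (-0.62) and without 3D replicate 3, GO-203 replicate 1, tet-MUC1shRNA vehicle replicate 3 or DOX replicate 1 (-0.73 to -0.67). ID3 between MUC1 and MYC silencing gained a call with RLE factors (1.32), library size alone (1.51), all 21 libraries (1.28) and without 3 libraries in turn, up to 2.27 without tet-MYCshRNA DOX replicate 3. ID4 on MUC1 silencing gained one with library size alone (1.09) and all 21 libraries (0.96). BMP6 against 2D cells gained one with tet-MUC1shRNA vehicle (1.27) or tet-MYCshRNA vehicle (1.03) in place of 3D cells. DESeq2 gave ID3 with GO-203 no adjusted p.

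Same-numbered libraries did not deviate together, with correlations of -0.127 to 0.0446 over the pairs, so the numbers were not taken to pair the cultures. With the replicate block, 8, 7, 6 and 6 members were called in 3D against 2D cells, on MUC1 silencing, with GO-203 and on MYC silencing, as without it. The block gave 8 differences between MUC1 and MYC silencing in place of 7, with ID3 added (1.51), and 6 between MUC1 silencing and GO-203. Taking the longest transcript as the gene length raised the CPM per kb of ID2, ID3, BMP4, SMAD6 and BAMBI, for ID3 in 2D cells from 144 to 227. ID3 and ID4 rest on at most 120 counts in total over the 3 libraries of each mammosphere group but tet-MUC1shRNA DOX for ID3, which limits what their changes among mammospheres can show.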

Other observations

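Among the 3 mammosphere groups without silencing or inhibitor, ID1, ID2 and BAMBI were apart in every pair of groups, 3 of 9 members against 24.1% of 22652 genes. The other 6 members overlapped in 1 pair each, ID3, ID4 and BMP4 between 3D and tet-MYCshRNA vehicle, BMP2 and SMAD6 between 3D and tet-MUC1shRNA vehicle, and BMP6 between both vehicle groups. For ID4, replicate 3 of 3D and replicate 3 of tet-MUC1shRNA vehicle held 4 counts each. Those 2 groups were thus apart for ID4 only by the scaling of the libraries. BAMBI was at 3.42 ± 0.382 CPM in 3D cells, 0.670 ± 0.101 in tet-MYCshRNA vehicle and 0.310 ± 0.0937 in tet-MUC1shRNA vehicle (SD, n = 3). ID2 was at 50.1, 8.42 and 37.7 CPM in the same order. SMAD6 was at 0.334 ± 0.0253 CPM in tet-MYCshRNA vehicle, under 1.79 ± 0.254 in 3D cells and 1.95 ± 0.189 in tet-MUC1shRNA vehicle (SD, n = 3). BMP4 was at 10.2 ± 0.560 CPM in tet-MUC1shRNA vehicle, under 24.9 ± 1.58 in 3D cells and 27.8 ± 2.86 in tet-MYCshRNA vehicle (SD, n = 3). These differences were not tested, and shRNA vector, vehicle and passage differ between the groups.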
